A study of Mus musculus with 16 samples.

Results

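The state reached after TNFα was compared between SIMPL-/- mouse embryonic fibroblasts (MEFs) and MEFs of littermate control mice, using the 8 TNFα-treated arrays of the 16 in the series, 4 for each genotype. SIMPL is the protein of Irak1bp1, and the SIMPL-/- cells carry the labelled genotype IRAK1BP1 KO while the littermate cells are labelled WT. Both genotypes share the strain label C57Bl/6 x 129Sv, and proliferating cells of both received recombinant human TNFα at 10 ng/ml, for 45 min by the labels and for 1 h by the study's methods. The other 8 arrays, 4 untreated for each genotype, served here as the background against which the treated difference was read. By the methods each MEF preparation came from 1 embryo and was repeated 4 times per strain. No label says whether the arrays of a group stem from separate preparations. No source ties an untreated array to a treated one, and p-values measure the spread between these arrays alone. All genes with a probe set that names 1 gene, 19938 in all, entered the comparison, and nothing measured was used to choose them.

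TNFα binds a receptor on the cell surface that releases NF-κB from its inhibitors, and NF-κB then switches on chemokines, adhesion molecules, cytokines and its own inhibitors within the hour. Fibroblasts are among the cells that send these signals, and the genes that rise first are followed by others that shut the pathway down. SIMPL was studied because it takes part in the signal from the TNFα receptor to NF-κB and is found with p65, the NF-κB subunit that drives most of this transcription. MEF cultures can also hold cells other than fibroblasts, such as embryonic macrophages, and a bulk array cannot tell fewer cells of a type from less RNA per cell.

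The values are log2 levels from robust multi-array averaging (RMA), so that 1 unit is a 2-fold change, and differences are given as SIMPL-/- minus littermate. Array medians lay between 6.99 and 7.10. Pairs of treated arrays of one genotype correlated at 0.995 to 0.997 across genes, and pairs of different genotype at 0.979 to 0.985. The first principal component of the 8 treated arrays held 74.9% of the variance. Fibroblast genes were bright in both genotypes, the list of 31 averaging 11.46 in littermate and 11.28 in SIMPL-/- MEFs after TNFα. The collagen gene Col1a1 read 14.35 and 14.13, a small difference that passed the test described below. The intermediate filament gene Vim read 13.72 and 13.88. The arrays are numbered 5 to 8 for treated littermate and 13 to 16 for treated SIMPL-/- MEFs, and values are given in that order. Irak1bp1, the targeted gene, read 7.65, 7.98, 8.03 and 7.98 in littermate MEFs and 5.26, 5.53, 5.08 and 5.6 in SIMPL-/- MEFs. The groups did not overlap and the gene was 5.82-fold lower (log2 difference -2.54, SE 0.12, adjusted p = 4.6e-12). Whether its probes lie inside the deleted stretch is not given in the sources used here.

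Differences were tested with limma in a model of all 4 groups, with Benjamini-Hochberg adjustment over all 19938 genes, and every adjusted p below comes from that fit. After TNFα, 3673 genes (18.4%) were lower and 3557 (17.8%) higher in SIMPL-/- than in littermate MEFs, 7230 (36.3%) in either direction. The largest differences leaned to the low side: 446 genes (2.24%) were lower by over 2-fold against 119 (0.597%) higher, and beyond 4-fold there were 81 against 13. The 4 and 4 arrays did not overlap for 6644 genes (33.3%). At the other end, 17238 genes (86.5%) had a difference whose 95% interval lay within 1.5-fold either way, so that most calls were of small size. The split between lower and higher calls depended on scaling. Of the calls, 50.8% were lower as deposited, 45.8% after quantile normalization and 32.7% after centring each array on its median, which moved the median difference over all genes from 0.03 to 0.10.

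**Figure D1:**
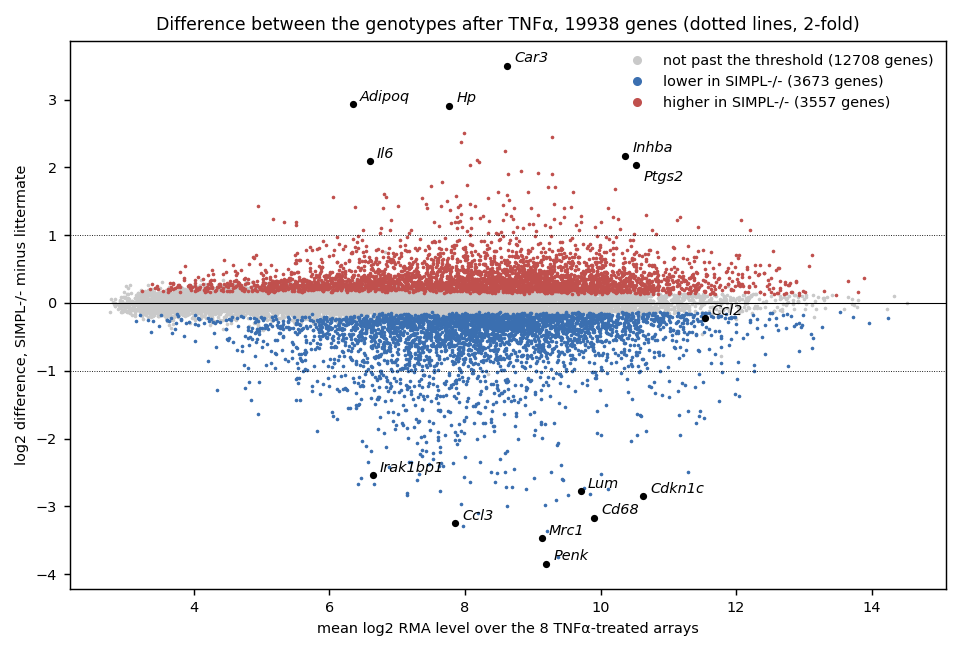
Log2 difference (SIMPL-/- minus littermate, y axis) against the mean log2 RMA level over the 8 TNFα-treated arrays (x axis), 1 point per gene, coloured by the limma call. Points below the lower dotted line (2-fold) outnumber those above the upper one, 446 to 119, and Penk and Car3 lie at the ends.

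The lowest genes in TNFα-treated SIMPL-/- MEFs were for the most part genes of macrophages. Mrc1, the mannose receptor of tissue macrophages, read 11.09, 10.86, 10.98 and 10.55 in littermate MEFs and 7.34, 7.4, 7.39 and 7.47 in SIMPL-/- MEFs. It was 11.1-fold lower with no overlap (log2 difference -3.47, SE 0.10). Cd68, a lysosomal glycoprotein of macrophages, read 11.74, 11.50, 11.55 and 11.15 against 8.23, 8.30, 8.35 and 8.39. Mpeg1, which encodes the pore-forming perforin-2, was 10.3-fold lower, Fcrls, an Fc receptor-like gene of macrophages and microglia, 13.4-fold, and Cd93, a receptor of phagocytes and endothelium, 9.77-fold. On each of these genes littermate array 8 had the lowest littermate reading and still lay over 2 log2 units above every SIMPL-/- array. Further genes among the 15 lowest were C3ar1 and C1qc of the complement system, 7.48-fold and 7.14-fold lower, the leukocyte signalling genes Plek and Lilr4b, 7.95-fold and 7.81-fold lower, and Hpgds, the hematopoietic prostaglandin D synthase, 7.13-fold lower.

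The list of macrophage markers followed these genes. Of 38 members measured, 34 were lower and the other 4 did not pass the test, with a median difference of -2.03 beside 0.03 over all genes. The mean level over the list was 8.77 ± 0.16 (SD, n = 4; arrays from 8.56 to 8.94) in littermate and 6.88 ± 0.01 (6.86 to 6.89) in SIMPL-/- MEFs. Without TNFα it stood at 8.66 ± 0.14 and 6.86 ± 0.04, so the gap was present before treatment. Spi1, the transcription factor PU.1 of the myeloid lineage, was 3.75-fold lower and Lyz2, lysozyme of phagocytes, 3.85-fold lower. The members that did not pass were Marco, Clec7a, Cd163 and Timd4, all dim, with means from 4.46 for Cd163 in littermate MEFs to 6.12 for Marco in SIMPL-/- MEFs. Centring the arrays put 2 members on the high side. Markers of other blood lineages did not move in this way. Of 22 lymphoid genes 1 was lower and 5 higher with a median of 0.06, and of 14 mast cell and basophil genes 2 were lower and 3 higher. These are 27.3% and 35.7% called, beside 36.3% over all genes. Both lists were dim after TNFα, so there was little room for a fall. Mean levels were 5.25 in littermate and 5.28 in SIMPL-/- MEFs for the lymphoid list, and 5.25 and 5.13 for the mast cell list.

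Other lists of leukocyte and phagocyte genes were lower to differing extents. Among 33 Fc receptor and leukocyte signalling genes 30 were lower and 1, the transcription factor gene Runx1, was higher, with a median of -1.57. Laptm5, a lysosomal membrane protein of blood cells, was 7.03-fold lower, and Fcer1g and Cd53 differed by -2.74 each. Of 26 lysosomal genes 23 were lower (median -0.82). Among these were Gpnmb at -2.04, Lgmn at -1.60 and Ctsb, the protease cathepsin B that most cells make, at -1.38. For complement 12 of 23 genes were lower and 4 higher (median -0.24), and the 3 chains of C1q differed by -2.84 (C1qc), -2.60 (C1qa) and -2.53 (C1qb). Of 16 phagocyte oxidase and granule genes 9 were lower and 1 higher (median -0.44). The oxidase gene Cybb differed by -2.72 and Ncf1 by -1.69. Against this direction Lcn2, the iron-binding lipocalin, was 2.95-fold higher, with 7.58 to 7.67 on the SIMPL-/- arrays and 5.78 to 6.34 on the littermate arrays.

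**Figure D2:**
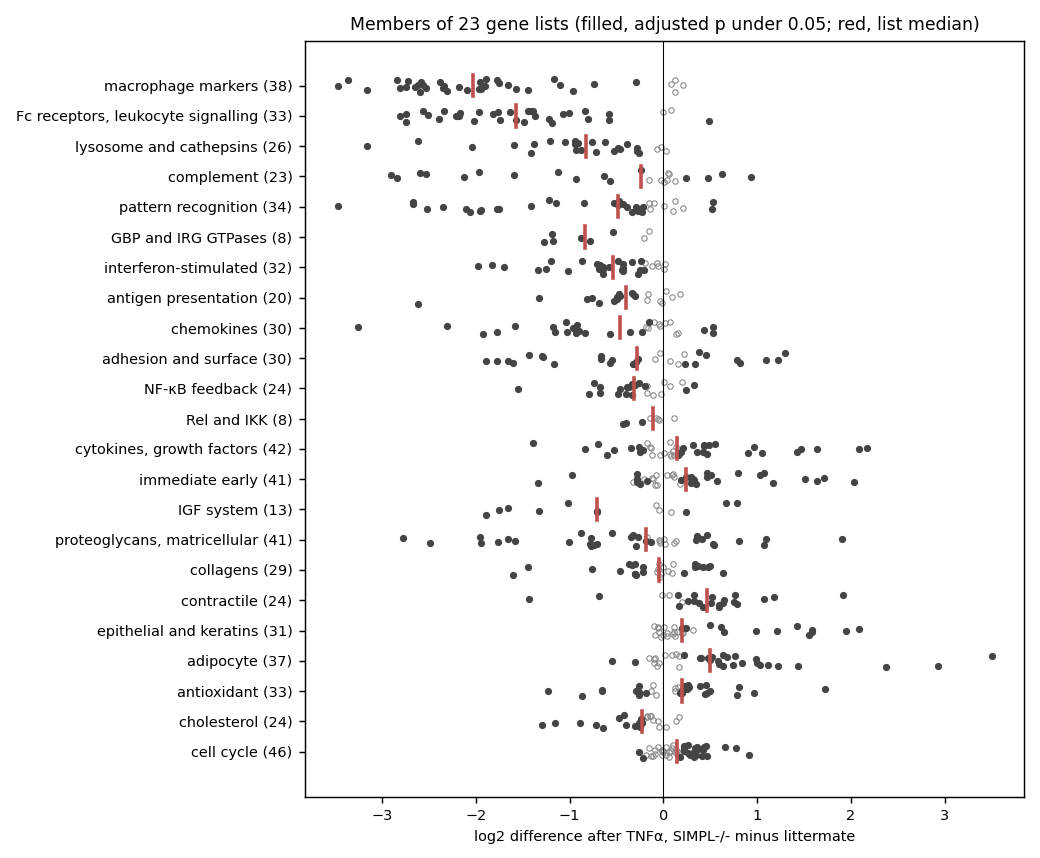
Log2 difference after TNFα (x axis) of each measured member of 23 gene lists (rows, number measured in brackets), filled where the adjusted p was under 0.05, with the list median in red. The macrophage list has its median at -2.03, and the adipocyte list at 0.49.

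Several of the lowest genes are on none of the leukocyte lists. Penk, which encodes the opioid precursor proenkephalin and is made by fibroblasts, showed the largest difference of all genes. It read 11.20, 10.90, 11.14 and 11.24 in littermate MEFs and 7.08, 7.37, 7.10 and 7.56 in SIMPL-/- MEFs, a 14.4-fold difference (log2 -3.85, SE 0.11, adjusted p = 1.3e-14). Agtr2, the type 2 receptor of angiotensin, was 8.57-fold lower and Rtl3, a gene derived from a retrotransposon, 7.93-fold lower. Cdkn1c, the imprinted cell cycle inhibitor p57, read 12.19, 12.01, 12.05 and 11.96 against 8.99, 9.34, 9.35 and 9.13. It was 7.21-fold lower with no overlap.

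Interferon-stimulated genes, which cells raise against viruses, were lower as a group. Of 32 measured, 26 were lower and the other 6 did not pass, with a median of -0.53. Rtp4 was 3.94-fold lower, Ifit1 3.55-fold, Ifit3 3.26-fold and Oasl2 differed by -1.34. Ifit1 read 8.14, 8.05, 8.24 and 8.19 in littermate MEFs and 6.24, 6.56, 6.25 and 6.27 in SIMPL-/- MEFs, with no overlap. The mean over the list was 7.93 ± 0.02 in littermate and 7.29 ± 0.07 in SIMPL-/- MEFs after TNFα (SD, n = 4), and 7.91 ± 0.05 and 7.38 ± 0.02 without it. Ifitm3, which blocks virus entry, did not pass at 12.76 and 12.78. The transcription factors above these genes were low too, with Stat2 at -1.17, Irf9 at -0.99 and Irf7 at -0.78.

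The GTPases of the GBP and IRG families, which act against microbes inside cells, had 6 of 8 members lower (median -0.83). Iigp1 differed by -1.27 and Gbp3 by -1.18. In antigen presentation 13 of 20 genes were lower and the other 7 did not pass, 1 of them being higher after centring of the arrays. Ctss, the cathepsin that trims antigen in phagocytes, was 6.12-fold lower. H2-Q4, a class I gene, was 2.50-fold lower, though class I genes are close copies and their probes may share signal. The peptide transporter gene Tap1 differed by -0.81, its partner Tapbp by -0.76 and the immunoproteasome gene Psmb8 by -0.69. Macrophages express many of these genes, the macrophage list stood 8.77 against 6.88 on the same arrays, and its part in these differences was not tested.

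On its brightest probe set Irf1, a transcription factor that TNFα and interferon switch on, separated the genotypes only after treatment by the test applied. It read 11.81, 11.86, 11.77 and 11.73 in treated littermate MEFs and 10.55, 10.66, 10.71 and 10.50 in treated SIMPL-/- MEFs. Without TNFα the means were 8.51 and 8.43. The difference after TNFα exceeded that without it by -1.10 (SE 0.10, adjusted p of the interaction = 1.0e-05). Gbp5, which lies downstream of interferon signalling, showed the same order, with a difference of -1.19 after TNFα and -0.06 without. The other, dimmer probe set of Irf1 read 7.14 in littermate and 7.04 in SIMPL-/- MEFs after TNFα, a difference of only -0.096.

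Genes of the TNFα response lay lower, at like levels or higher in SIMPL-/- MEFs, depending on the gene. Of 30 chemokines, the proteins that draw leukocytes to inflamed tissue, 18 were lower and 3 higher, with a median of -0.46. The NF-κB feedback list holds inhibitors and ubiquitin editors that restrain NF-κB, along with other genes. Of its 24 members 15 were lower and 2 higher (median -0.32), and 16 had an interval within 1.5-fold. Over all genes 86.5% had such an interval. Of 8 genes for Rel proteins and IκB kinases 3 were lower, Rel by 1.35-fold, Ikbke and Relb, while Rela, which encodes p65, did not pass. These 3 are 37.5% of the list, close to the 36.3% called over all genes. Rela read 9.47, 9.42, 9.50 and 9.61 against 9.43, 9.45, 9.44 and 9.47, and its 95% interval ran from -0.18 to 0.08. Nfkb2, the precursor of p52, had a like interval from -0.17 to 0.08. Receptor and adaptor genes of the pathway were mixed, with 11 of 27 lower and 7 higher. Among them the kinase gene Map3k8 was 2.02-fold lower and Ripk3, a kinase of necroptosis, 1.67-fold higher.

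Among the chemokines, Ccl3 (MIP-1α), which macrophages release, showed the largest difference. It read 9.32, 9.68, 9.67 and 9.25 in littermate MEFs and 6.50, 6.21, 6.04 and 6.16 in SIMPL-/- MEFs, and was 9.53-fold lower. Pf4, a chemokine of platelets and macrophages, was 4.94-fold lower, and the monocyte attractant Ccl12 3.80-fold. Without TNFα these genes already differed, by -2.42 for Ccl3, -1.92 for Pf4 and -1.49 for Ccl12. The macrophage list stood at 8.77 against 6.88 on the treated arrays, and its part in these results was not tested. Cxcl10, an attractant of T cells, read 12.22, 12.37, 12.30 and 12.30 against 10.38, 10.67, 10.67 and 10.36. It was 3.43-fold lower after TNFα, rose in both genotypes, and had a difference of -1.16 already without TNFα. In contrast to these, the monocyte attractants Ccl2 and Ccl7 came close to the littermate level. Ccl2 read 11.48, 11.71, 11.67 and 11.74 in littermate and 11.43, 11.56, 11.36 and 11.34 in SIMPL-/- MEFs, and the arrays overlapped. Its difference of -0.23 passed the test (adjusted p = 0.019), and its interval from -0.38 to -0.07 lay within 1.5-fold. The call was lost after centring of the arrays, in the methods' t-test and without array 6, 8, 15 or 16. Ccl7 read 11.62, 11.64, 11.63 and 11.60 against 11.52, 11.44, 11.42 and 11.51, a difference of -0.15 (adjusted p = 0.0497) whose call was lost after centring, in the fit of the 8 treated arrays alone and without any 1 array other than array 13. Cxcl1, an attractant of neutrophils, did not pass at 9.03 and 8.99, with an interval from -0.23 to 0.14.

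The receptor genes on the cell surface held the clearest cases of a difference that changed with TNFα. Clec4e, the receptor Mincle of macrophages, read 8.01, 7.86, 7.92 and 7.26 in treated littermate MEFs and 5.13, 4.88, 4.99 and 5.38 in treated SIMPL-/- MEFs. Untreated means were 5.19 and 4.63, so the level in SIMPL-/- MEFs after TNFα stayed near that of untreated littermate cells. The interaction was -2.11 (SE 0.24, adjusted p = 0.0001). Tlr2, through which cells sense bacterial lipoproteins, read 10.34, 9.8, 10.03 and 9.77 against 8.03, 8.03, 8.16 and 7.96, and was 3.84-fold lower after TNFα (interaction -1.45, adjusted p = 4.1e-05). Cd69, an early activation marker, was 2.70-fold lower and Ccrl2, a chemokine-binding receptor, 2.45-fold lower after TNFα. Without it Cd69 means were 4.69 and 4.65, and Ccrl2 was higher in SIMPL-/- MEFs by 0.21. Clec4e and Cd69 had means under 6 in every group but treated littermate MEFs. At such dim levels signal over background limits the size of a difference that can be measured. Sele, the E-selectin that leukocytes roll on, read 9.0, 9.34, 9.22 and 9.18 against 7.92, 7.89, 8.09 and 8.17 (interaction -1.64). Without TNFα Sele was higher in SIMPL-/- MEFs by 0.47. Icam1, an adhesion molecule for leukocyte integrins chosen after its values were seen, was 2.44-fold lower after TNFα and had untreated means of 8.28 and 8.11. The macrophage list gave its gap of 8.77 against 6.88 on these arrays as well, and its part in the results for Clec4e, Tlr2 and Cd69 was not tested. Over the whole list of adhesion and surface genes 16 of 30 were lower and 9 higher, Itgb3, the β3 integrin, being the highest at 2.46-fold.

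Of the pattern recognition receptors 25 of 34 were lower and 2 higher (median -0.48). Tlr7, which senses RNA, was 6.36-fold lower, and Cd180 differed by -2.53. Both had differences of like size without TNFα, -2.78 for Tlr7. After the 5 members shared with the leukocyte lists were set aside, 22 of the remaining 29 were lower. Those lists need not hold every gene of macrophages, so this count does not set macrophages aside. The macrophage list stood at 8.77 against 6.88 on these arrays, and its part in the pattern receptor results was not tested.

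**Figure D3:**
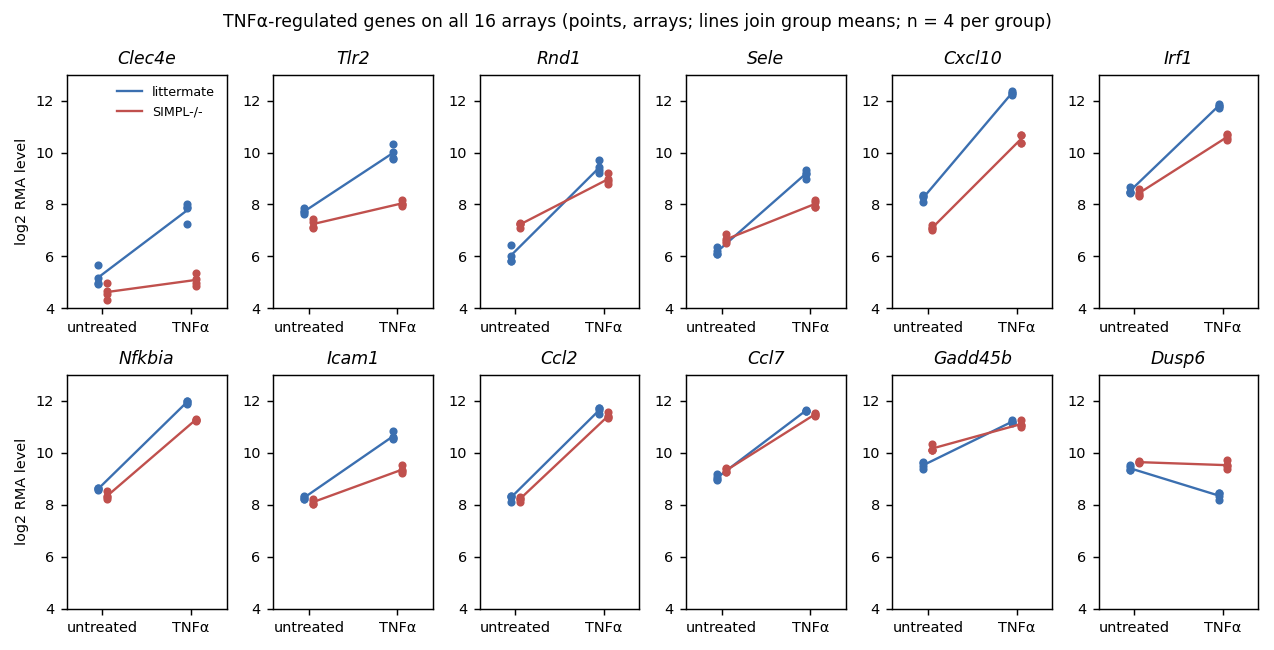
Log2 RMA levels (y axis) of 12 TNFα-regulated genes on all 16 arrays, untreated and after TNFα (x axis), with points for arrays and lines joining the means of 4. Ccl2, Ccl7 and Gadd45b end close together in the genotypes, while Clec4e, Tlr2, Sele and Irf1 end apart and Dusp6 falls in littermate MEFs alone.

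Promoters of the surface and chemokine genes are shown since NF-κB acts there. RefSeq holds a window of 250 bases before to 50 after the gene start on GRCm38.p6 for 15562 of the genes. Only 2 forms of the κB motif were searched, on either strand: GGG, 2 bases of any kind and then TTTCC or ATTCC. These forms can overlap each other, and 397 of the genes (2.55%) held the motif so defined in a window. The share was 3.18% for genes lower after TNFα, 5.72% for those lower by over 2-fold and 5.81% for those higher by over 2-fold. It was 6 of 21 genes (28.6%) for the chemokines and also 6 of 21 for the NF-κB feedback list. The cytokines had 5 of 29 (17.2%), the pattern recognition receptors 4 of 26 (15.4%) and the adhesion and surface genes 0 of 17. Of 69 genes with a negative interaction and a window 14 (20.3%) held the motif, and of 15 with a positive one 0 did. Capitals in the windows below, read 5′ to 3′ on the gene's strand, mark the motif. They belong to the genes with the largest negative differences after TNFα, among 23 genes of the chemokine, cytokine, adhesion, pattern recognition and NF-κB feedback lists that were lower after TNFα and had a negative interaction, for which the table holds a window and which are shown here.
Clec4e, chr6:123289822-123290121, minus strand: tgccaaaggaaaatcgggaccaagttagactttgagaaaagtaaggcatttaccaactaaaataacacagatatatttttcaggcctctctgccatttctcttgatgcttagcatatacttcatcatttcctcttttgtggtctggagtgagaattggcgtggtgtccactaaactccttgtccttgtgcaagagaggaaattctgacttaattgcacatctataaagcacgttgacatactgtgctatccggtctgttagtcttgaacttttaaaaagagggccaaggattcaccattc
Tlr2, chr3:83841559-83841858, minus strand: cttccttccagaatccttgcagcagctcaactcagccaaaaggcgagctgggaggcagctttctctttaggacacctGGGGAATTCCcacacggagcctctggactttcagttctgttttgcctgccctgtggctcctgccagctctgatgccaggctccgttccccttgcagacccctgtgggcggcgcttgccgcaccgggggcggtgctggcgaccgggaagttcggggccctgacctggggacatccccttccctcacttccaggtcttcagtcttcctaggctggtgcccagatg
Cxcl10, chr5:92348840-92349139, minus strand: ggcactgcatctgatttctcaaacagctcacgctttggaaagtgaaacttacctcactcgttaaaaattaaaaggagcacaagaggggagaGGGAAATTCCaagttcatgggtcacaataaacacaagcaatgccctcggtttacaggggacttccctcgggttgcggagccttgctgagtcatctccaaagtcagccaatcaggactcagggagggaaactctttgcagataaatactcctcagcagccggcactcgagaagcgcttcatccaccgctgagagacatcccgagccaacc
The motif GGGGAATTCC of Tlr2 begins at position -173 from the gene start, and GGGAAATTCC of Cxcl10 at -159. The Clec4e window does not hold these letters, which says nothing of the factor. Of the 23 genes described above, 7 had no window and 6 held the motif. Ptafr and Tnip3, next in order of difference, had a window without it. So did Ccrl2, Icam1, Sele, Nlrp3, Fas, Tnfaip2 and Tnfsf15. Since only 2 forms were searched, a window without them may still hold κB sites of other forms. Other listed genes with a negative interaction held it closer to the start, Cxcl2 as GGGAATTTCC at -97 and GGGCTTTTCC at -78, Ccl20 as GGAAAACCCC at -80 and Nfkbia as GGAAATTCCC at -29, the last 2 on the opposite strand. Cxcl2 was 1.91-fold and Ccl20 1.89-fold lower after TNFα, both named here for the motif and after their values were seen.

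The best-known feedback inhibitors of NF-κB rose with TNFα in both genotypes and stood lower in SIMPL-/- MEFs. Nfkbia, which encodes IκBα, read 11.90, 12.01, 11.99 and 11.86 in treated littermate MEFs and 11.28, 11.31, 11.21 and 11.26 in treated SIMPL-/- MEFs, a 1.60-fold difference with no overlap. Untreated means were 8.61 and 8.33. Tnfaip3, the ubiquitin editor A20, was 1.4-fold lower after TNFα, with an interval from -0.63 to -0.34. Tnip3, a partner of A20, was 2.93-fold lower and had the largest difference of the list. Nfkbie, which encodes IκBε, differed by -0.74. Tnfaip8 and Trib3 differed by -0.79 and -0.68, though Tnfaip8 did not pass the test of a response to TNFα in either genotype and Trib3 fell in both. Birc3, an inhibitor of apoptosis, read 9.05, 9.21, 9.17 and 9.07 against 8.84, 8.79, 8.82 and 8.85, and differed by -0.30 with an interval inside 1.5-fold. Bcl3, a nuclear IκB protein, did not pass at -0.18 (adjusted p = 0.071).

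Intervals within 1.5-fold were also found for genes of other roles. Gadd45b, a stress protein that NF-κB induces, read 11.26, 11.19, 11.20 and 11.14 in littermate and 11.08, 11, 11.26 and 11.09 in SIMPL-/- MEFs, with an interval from -0.24 to 0.06. It started 0.64 higher in untreated SIMPL-/- MEFs, and the interaction was -0.73. Nr4a1, an orphan nuclear receptor, read 11.27, 11.68, 12.06 and 12.05 against 12.02, 12.02, 11.98 and 12.01. The littermate arrays spread widely, array 5 being the lowest, and their range took in all 4 SIMPL-/- arrays. Btg2, an antiproliferative gene, differed by -0.28 after TNFα and 0.48 without. Its call after TNFα was lost after centring, in the methods' t-test and without array 7.

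Btg2 was one of 21 genes that were lower after TNFα and higher without it, and 4 genes went the other way. Rnd1, a small GTPase that rounds cells up, and Sele had the largest changes among them. Rnd1 read 9.21, 9.71, 9.45 and 9.34 in treated littermate and 8.92, 8.81, 9.20 and 8.99 in treated SIMPL-/- MEFs, with untreated means of 6.03 and 7.22. Its difference was 1.19 before and -0.45 after TNFα (interaction -1.64, adjusted p = 6.1e-05). Tnfaip2, named for its induction by TNFα, went from 0.96 to -0.34, with overlapping arrays after TNFα. The calls of Rnd1 and Tnfaip2 after TNFα were lost in the methods' t-test.

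Immediate early genes, which growth factors and stress switch on within minutes, leaned to the high side. Of 41 measured, 20 were higher and 7 lower, with a median of 0.24. This lean was present without TNFα, where 27 were higher and 4 lower with a median of 0.42. Ptgs2, the inducible cyclooxygenase COX-2, read 9.07, 9.46, 9.70 and 9.8 in littermate and 11.50, 11.50, 11.51 and 11.66 in SIMPL-/- MEFs, and was 4.1-fold higher. Plaur, the urokinase receptor, was 3.27-fold higher, Fosl1, an AP-1 subunit, 2.85-fold, and Dusp4, a phosphatase that turns off MAP kinases, 3.12-fold. None of these groups overlapped. Dusp6, the phosphatase of ERK, read 8.17, 8.46, 8.35 and 8.45 against 9.49, 9.51, 9.38 and 9.71 after TNFα, while untreated means were 9.41 and 9.64. Its interaction of 0.93 (adjusted p = 7.7e-05) was the largest positive one of all genes. Atf3, a stress transcription factor, went against the list, 2.53-fold lower, and Jun did not pass at 10.25 and 10.05. After centring of the arrays 3 members in place of 7 were lower.

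Cytokines and growth factors were split, with 19 of 42 higher, 9 lower and a median of 0.14. Inhba, which encodes the activin A subunit, was 4.51-fold higher, with 9.04 to 9.47 on littermate and 11.36 to 11.63 on SIMPL-/- arrays. Il6, the acute phase cytokine, read 4.97, 5.72, 5.77 and 5.75 in littermate and 7.55, 7.63, 7.85 and 7.54 in SIMPL-/- MEFs, 4.26-fold higher (SE 0.17 on the log2 scale). Littermate array 5 lay well below the other 3, and the groups stayed apart. Il6 means without TNFα were 4.67 and 5.99, and its interaction of 0.76 did not pass (adjusted p = 0.19). The EGF receptor ligands Hbegf and Ereg were 3.12-fold and 2.76-fold higher and the epithelial cytokine Tslp 2.69-fold. Without TNFα these genes and Inhba already differed, by 1.39 for Hbegf, 1.11 for Ereg, 1.60 for Tslp and 1.70 for Inhba. Vegfa, the growth factor of blood vessels, was 1.96-fold higher, and its difference after TNFα exceeded that before by 0.51 (adjusted p of the interaction = 0.0035). Tnfsf9, the ligand of 4-1BB, was the lowest member, 2.63-fold lower after TNFα, with untreated means of 6.24 and 6.00.

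**Figure D4:**
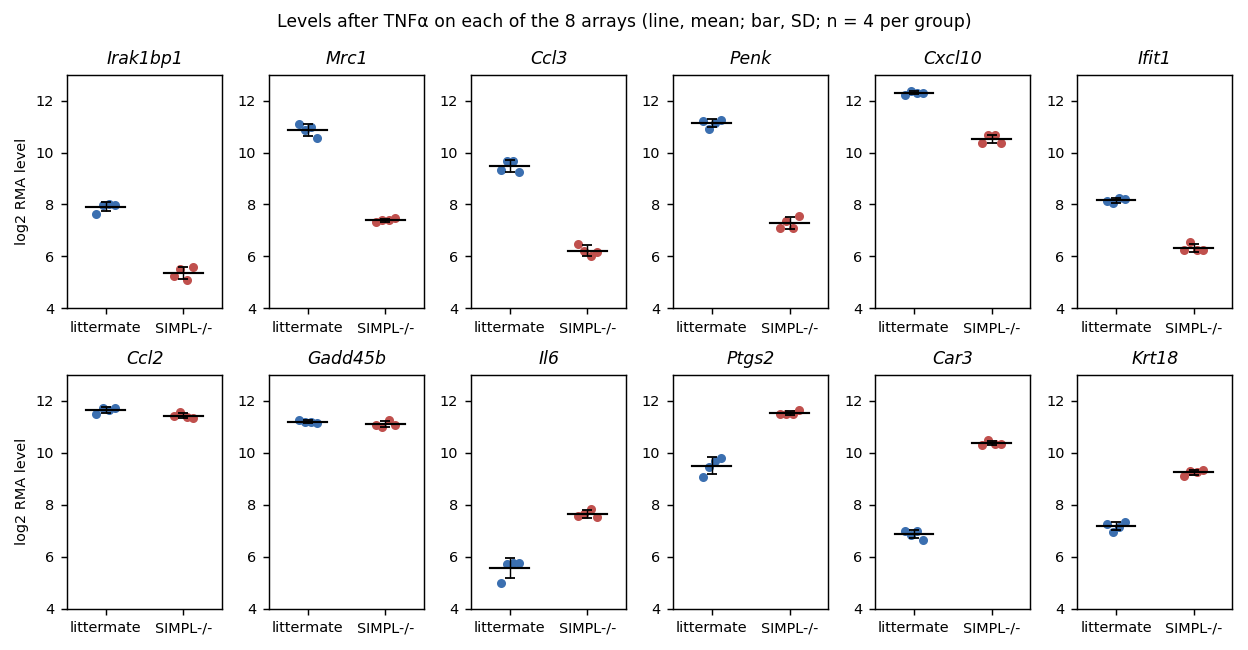
Log2 RMA level (y axis) of 12 genes on each TNFα-treated array, 4 littermate (blue) and 4 SIMPL-/- (red), with mean and SD. Ccl2 and Gadd45b lie close in the genotypes, while the other 10 genes do not overlap.

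The highest genes in TNFα-treated SIMPL-/- MEFs included those of adipocytes. Car3, carbonic anhydrase 3 of fat and muscle, read 6.99, 6.85, 7.0 and 6.66 in littermate and 10.31, 10.48, 10.35 and 10.35 in SIMPL-/- MEFs, and was 11.3-fold higher (log2 difference 3.5, SE 0.07). Adipoq, the fat hormone adiponectin, was 7.61-fold higher and Fabp4, a fatty acid carrier of adipocytes, 5.17-fold. Of 37 adipocyte genes 23 were higher and 2 lower (median 0.49), among them Gpd1 at 1.43, the lipid droplet gene Plin1 at 1.22 and the desaturase gene Scd1 at 1.12. The mean over the list was 7.43 ± 0.02 in littermate and 8.05 ± 0.02 in SIMPL-/- MEFs (SD, n = 4), and 7.41 and 8.06 without TNFα. Fasn, fatty acid synthase, did not pass, with a difference of 0.14.

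Some keratins were high as well. Krt18, a keratin of simple epithelia, read 7.26, 6.97, 7.13 and 7.32 in littermate and 9.12, 9.29, 9.28 and 9.33 in SIMPL-/- MEFs, 4.24-fold higher. Its partner Krt8 was 3.01-fold higher, Upk1b, a uroplakin, 3.86-fold, and Msln, mesothelin, 2.69-fold. Krt7 and Krt14 differed by 1.58 and 1.55. In the epithelial list 13 of 31 genes were higher and the other 18 did not pass. This is 41.9% called, near the 36.3% over all genes. The epithelial adhesion genes Epcam and Cdh1 were dim in both genotypes, at 5.71 and 5.72 and at 5.94 and 5.98. Further genes among the highest were Hp, the hemoglobin binder haptoglobin, 7.51-fold, Adcyap1r1, the PACAP receptor, 5.69-fold, Gjb2, the gap junction protein connexin 26, 5.44-fold, Sema7a, a membrane semaphorin, 4.71-fold, and Cck, the peptide cholecystokinin, 4.31-fold.

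Contractile genes, the actin machinery of smooth muscle and myofibroblasts, were higher in 19 of 24 and lower in 2, with a median of 0.47. Ankrd1, a target of YAP in stretched cells, was 3.77-fold higher, Cnn1, calponin, differed by 1.18 and Actg2, an actin of smooth muscle, by 1.07. The mean of the list was 9.97 ± 0.06 against 10.39 ± 0.04 after TNFα (SD, n = 4). Itga8, the integrin α8 on the same list, went the other way at -1.44.

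Matrix genes with the largest differences lay on both sides. Lum, the small proteoglycan lumican, read 11.19, 10.99, 11.14 and 11.07 in littermate and 8.01, 8.56, 8.40 and 8.32 in SIMPL-/- MEFs, 6.85-fold lower. Ogn, osteoglycin, another small proteoglycan, was 5.61-fold lower and Eln, elastin, 3.87-fold. Has2, the main synthase of hyaluronan, ran the other way, 3.74-fold higher with 8.24 to 8.39 against 10.07 to 10.45. Across 41 proteoglycan and matricellular genes 21 were lower and 11 higher. Of 29 collagens 12 were lower and 8 higher, Col14a1 at -1.60 and Col8a2 at -1.44 being the lowest. Proteases of the matrix included Mmp3, stromelysin, 5.10-fold lower, and Mmp13, a collagenase, 3.49-fold lower, while Timp1, their inhibitor, was 2.33-fold higher. In the fibroblast list 15 of 31 genes were lower and 10 higher, S100a4 at 1.70 being the highest, and Sparc, an abundant matrix protein, did not pass at -0.04.

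Growth factor and positional genes followed. In the insulin-like growth factor system 7 of 13 genes were lower and 3 higher (median -0.70). Igfbp3, the main carrier of IGF in plasma, was 3.70-fold lower, Igf1 itself 3.38-fold, and Igfbp4 and Igfbp2 differed by -1.66 and -1.33. Of 43 TGFβ, BMP and Wnt genes 17 were lower, the growth factor gene Gdf10 the lowest at -2.01, and 14 higher, with Fst, the activin binder follistatin, 2.64-fold higher beside Inhba. Hox genes, which record position along the body and limb, had 17 of 37 higher and 8 lower. Hoxd13, the gene of the limb's far end, read 8.26, 8.50, 8.64 and 8.31 in littermate and 6.35, 6.98, 6.69 and 6.19 in SIMPL-/- MEFs, 3.67-fold lower. Hoxc5 was the highest at 1.71-fold. Whether the embryos or the tissue taken differed between the genotypes is not given in the sources used here.

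Genes of metabolism, stress and cell death were measured next. Of 24 cholesterol genes 13 were lower and the other 11 did not pass, though 2 were higher after centring of the arrays. The lowest were Apoe and Abca1, which move cholesterol out of cells, at -1.29 and -1.15. Among 33 antioxidant genes 18 were higher and 9 lower. Nqo1, a quinone reductase, read 6.71, 6.65, 6.63 and 6.55 in littermate and 7.79, 8.02, 9.47 and 8.16 in SIMPL-/- MEFs, 3.30-fold higher, and array 15 lay far above the other 3. Gclc, which starts glutathione synthesis, differed by 0.96 and the metallothionein Mt2 by -1.24. Of 26 genes of apoptosis and inflammasomes 12 were lower and 2 higher. Among these the inflammatory caspase genes Casp1 and Casp4 stood at -1.43 and -1.22.

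Cell cycle genes differed by small amounts. Of 46 measured, 21 were higher, 2 lower and 23 did not pass, with a median of 0.14, and 41 had an interval inside 1.5-fold. Over all genes 36.3% were called and 86.5% had an interval inside 1.5-fold. The cyclin gene Ccne2 was 1.88-fold higher and Rrm2, a subunit of ribonucleotide reductase, differed by 0.78. Mediator, the complex that joins transcription factors to RNA polymerase, had 14 of 33 subunit genes higher and 3 lower, with 28 inside 1.5-fold. Its kinase Cdk8 was the widest at 1.58-fold.

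The remaining lists are given by their counts, to be read beside the 36.3% called over all genes. Below that share lay the cartilage and bone list (28%), the erythroid (25%) and the skeletal and cardiac muscle list (30.4%). Scavenger and lipid-handling genes had 14 of 24 lower and 6 higher (median -0.32), acute phase and serpin genes 7 of 18 lower and 5 higher, and prostaglandin and lipid mediator genes 10 of 25 lower and 8 higher. Glycolysis and hypoxia genes had 11 of 24 lower and 8 higher, and p53 targets and cyclin-dependent kinase inhibitors 10 of 25 lower and 9 higher. STAT, SOCS, IRF and C/EBP genes had 13 of 25 lower and 3 higher (median -0.21). Of cell type lists, the endothelial had 3 of 22 lower and 7 higher, the neural and glial 5 of 21 lower and 4 higher, the cartilage and bone list 5 of 25 lower and 2 higher, and the erythroid 1 of 12 lower and 2 higher. Skeletal and cardiac muscle genes had 7 of 23 higher and the other 16 did not pass. Housekeeping genes, used as a yardstick of the background, had 4 of 14 lower and 5 higher (64.3% called), with differences from -1.05 to 1.24. A list with a called share near that 64.3% is not set apart from them by its share. Since centring moved the median of all genes from 0.03 to 0.10, a list whose median lies that near 0 has no settled direction.

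The sex-linked genes and the chromosomal neighbours of Irak1bp1 were measured to compare the groups apart from SIMPL. Xist, the RNA of the inactive X, read 9.53, 10.03, 10.04 and 9.71 in treated littermate and 8.25, 8.65, 8.31 and 8.42 in treated SIMPL-/- MEFs, 2.67-fold lower. The Y-linked genes Eif2s3y and Uty were 1.62-fold and 1.53-fold higher. The groups did not overlap on these 3 genes, and the part of sex in the other results was not tested. Every treated littermate array read Xist at 9.53 or above together with Eif2s3y at 7.37 to 7.68. Whether each array stems from a single embryo of 1 sex was not tested. Of the 25 genes on either side of Irak1bp1 on chromosome 9 in the RefSeq table (GRCm38.p6), 46 were measured. Of these, 11 were lower and 11 higher, 47.8% called beside 36.3% over all genes. Prss35, an inactive serine protease, was 4.83-fold lower with 8.92 to 9.32 against 6.73 to 7.16, and Htr1b, a serotonin receptor, 2.66-fold higher. Genotype and the derivation of the cultures cannot be told apart.

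Most genes called after TNFα were also called without it. The means of these comparisons come from different arrays, while their tests share the estimate of the spread of each gene over all 16. Without TNFα 3511 genes (17.6%) were lower and 4640 (23.3%) higher. Lower in both states were 2852 genes, 77.6% of those lower after TNFα and 81.2% of those lower without. Higher in both were 2413 genes, 67.8% of those higher after TNFα and 52.0% of those higher without. Across genes the differences in the 2 states had a Pearson's r of 0.908 and a Spearman's rank correlation of 0.748, as a description over 19938 genes that share arrays and are no independent replicates. The test of the interaction, that is of the change in the difference with TNFα, passed for 88 genes (0.441%) in the negative and 19 (0.0953%) in the positive direction. The negative ones counted 8 of 30 adhesion and surface genes, 6 of 30 chemokines, 5 of 24 NF-κB feedback genes and 4 of 34 pattern receptors. Rasgef1b, an exchange factor that Toll-like receptors induce, was 4.68-fold lower after TNFα with an interaction of -1.20. Positive interactions were smaller. Foxc2, a transcription factor of mesenchyme, differed by 1.10 after TNFα and 0.39 without, and Prkar2a, a regulatory subunit of protein kinase A, by 1.25 and 0.72. Flcn, the folliculin gene, and Kcne4, a potassium channel subunit, were low in both states and less so after TNFα, at -0.41 and -0.54 against -1.03 and -1.04. The positive count was unstable. Without array 14 it was 5 and without array 15 it was 54, and the calls of Prkar2a and Kcne4 were lost without array 5 or 14.

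**Figure D5:**
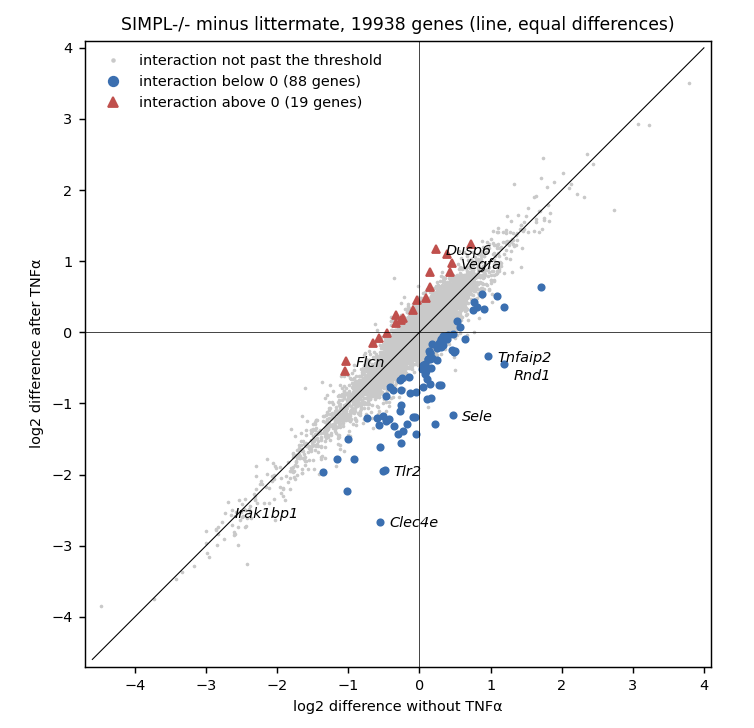
Log2 difference between the genotypes after TNFα (y axis) against that without it (x axis), 1 point per gene, with the genes past the interaction test in blue (88, below 0) and red (19, above 0) and the line of equal differences. Clec4e, Sele and Rnd1 lie far below the line while most genes follow it (r = 0.908).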

How the data were processed

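RNA of 16 MEF cultures was hybridised to Affymetrix Mouse Gene 1.0 ST arrays, 1 array a sample. The deposited log2 values were made by the authors with RMA in Partek per the labels (versions not given), while the methods name another Affymetrix suite. The array scanner files were not used here. Of 28853 probe sets, 21789 name 1 gene, 1621 several and 5443 none, and the brightest probe set on average stood for each of 19938 genes. Levels were compared in limma 3.58.1 (R 4.3.3) with 4 group means on all 16 arrays, two-sided, at an adjusted p under 0.05. The test was checked on simulated data. The number of arrays, 4 a group, limits the precision. The members and the 47 gene lists were chosen with earlier results of these data known, and no list was given a test of its own. A difference was called like where its 95% interval lay within 1.5-fold. Genes were named as the target, the 15 largest differences each way without overlap, up to 6 called and 3 uncalled members of a list, the 10 largest interactions each way, and up to 8 TNFα targets of like level. Col1a1, Vim, Cd163, Runx1, Icam1, Cxcl2, Ccl20, Epcam and Cdh1 were named outside that rule, after their values were seen. Alternatives were array centring, quantile normalization, leaving out dim genes (mean under 6 in every group), the mean of probe sets, trend with robust moderation, array weights, the 8 treated arrays alone, the methods' t-test, other thresholds and leaving out each treated array. Promoters came from RefSeq (GRCm38.p6). Figures were drawn with matplotlib 3.10.9 in Python 3.11.15 and pandas 2.3.3.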

Additional observations from a re-analysis of the deposited data

Results flagged for a closer look

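In 26 of the 334 groups of 4 treated arrays tested, over the 167 genes named, 1 array stood apart from the other 3, where chance gives about 5%. The measure is the gap of that array to its nearest neighbour as a share of the group's range, judged by Dixon's 95% limit. Littermate array 5 read low for Irak1bp1 (0.881), Il6 (0.939), Ereg (0.963), Ankrd1 (0.888) and Timp1 (0.879), and high for Epcam (0.845). Littermate array 6 read high for Cnn1 (0.833) and Eif2s3y (0.853), and array 7 high for Irf9 (0.939) and Krt8 (0.831). Littermate array 8 read low for the macrophage genes Ncf1 (0.952) and Pf4 (0.836) and for Flcn (0.867), and high for Adcyap1r1 (0.966). SIMPL-/- array 13 read high for Vim (0.880), and array 14 for Fcer1g (0.855) and Ifit1 (0.915). SIMPL-/- array 15 read high for Oasl2 (0.838) and Gbp5 (0.860), and low for Fasn (0.919) and Flcn (0.872). SIMPL-/- array 16 read high for C3ar1 (0.968), Cybb (0.845), Ptgs2 (0.936), Inhba (0.842) and Prss35 (0.865).

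For 30 of the genes named the difference between the genotypes changed with TNFα, at an adjusted p under 0.05 for the interaction in limma. Among receptors and adhesion genes the change on the log2 scale was -2.11 for Clec4e, -1.64 for Sele, -1.51 for Ccrl2, -1.45 for Tlr2, -1.38 for Cd69 and -1.11 for Icam1. Among chemokines and cytokines it was -1.16 for Tnfsf9, -1.08 for Ccl20, -1.04 for Cxcl2, -0.61 for Cxcl10 and -0.42 for Ccl7. For NF-κB regulators it was -1.29 for Tnip3, -0.75 for Map3k8, -0.56 for Tnfaip3, -0.51 for Bcl3 and -0.40 for Nfkbia. Genes of other roles gave -1.64 for Rnd1, -1.30 for Tnfaip2, -1.20 for Rasgef1b, -1.13 for Gbp5, -1.10 for Irf1, -0.79 for Casp4, -0.76 for Btg2 and -0.73 for Gadd45b. The positive changes were 0.93 for Dusp6, 0.71 for Foxc2, 0.62 for Flcn, 0.53 for Prkar2a, 0.51 for Vegfa and 0.50 for Kcne4.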

How the results depend on the processing

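Of the genes named by the rule, none that passed the test after TNFα reversed its direction under any alternative run. A change of sign in genes that did not pass was not counted. Leaving out 1 treated array gave 3378 to 3657 lower and 3173 to 3483 higher genes, and -2.63 to -2.45 for Irak1bp1. Centring gave 5927 higher genes. With over 1.5-fold and an unadjusted p under 0.001 there were 1074 lower and 525 higher genes, with an adjusted p under 0.05 and over 1.5-fold 1078 and 526, and over 2-fold 446 and 119. The interaction was less stable. Negative interactions numbered 155 with trend and robust moderation and 61 to 130 with 1 array left out. Positive ones numbered 32 after quantile normalization, 37 without dim genes, 98 with trend and robust moderation, 50 with array weights, 7 in the methods' t-test and 5 to 54 with 1 array left out, lowest without array 14 and highest without array 15. In all, 253 genes passed with trend and robust moderation, 182 with array weights and 66 to 184 with 1 array left out. The cause was not tested. No paired analysis was possible because no label ties an array of one group to an array of another. Dim genes numbered 6114 of the 19938, and signal over background limits what could be measured in them.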
